A study of Homo sapiens with 24 samples.

Results

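Genes of the NF-κB pathway and of inflammatory signaling, with the adhesion gene ICAM1 among them, were followed in H1299 cells that expressed an isoform of p53 lacking its first part. The 38 genes were taken from the count table by symbol, out of 60563 named genes, and all 24 libraries were used. They comprised 5 NF-κB subunits, 5 inhibitors, 6 survival and signaling targets, 9 chemokines, 10 cytokines, and 3 genes of adhesion and prostaglandin synthesis. These cells, an established human line from a non-small cell lung cancer, are described in the study as p53 null, so neither the control nor the other lines had p53 of their own. The control was H1299 carrying the empty vector (4 libraries). A set of 3 clonal lines stably expressed plasmid-borne Δ133p53α (Δ133p53α1, Δ133p53α2 and Δ133p53α8, 4 libraries each) and a pair of clonal lines expressed Δ133p53β (Δ133p53β5 with 3 libraries and Δ133p53β10 with 4). One more Δ133p53β library carried a sample label of one clone and a column name of the other, so its values were given separately and it entered no group. Each line is 1 clone, so the effect of an isoform and the peculiarity of a clone cannot be told apart within a line. The sources used here do not say that libraries of a line came from separate cultures, so p-values measure the spread between these libraries, which may be technical.

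NF-κB transcription factors are dimers of the subunits encoded by NFKB1, NFKB2, REL, RELA and RELB. In resting cells the dimers are held in the cytoplasm by IκB proteins, and cytokines such as TNF and IL1B, or microbial products, activate kinases that mark IκB for destruction. The freed dimers bind κB sites in promoters and raise the transcription of chemokines, cytokines, adhesion molecules, survival factors, and the inhibitors themselves, which closes a negative feedback loop. In lung epithelium the pathway is known for recruiting leukocytes, and p53 and NF-κB are known to affect each other's activity.

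The libraries held between 21531599 and 25381731 counted reads. At this depth 3 reads, the limit that a count of 0 allows, corresponded to between 0.112 and 0.171 CPM, the count of a gene scaled to a common library size, and this limit covers counting error only. The cells expressed the vimentin gene VIM and the keratin genes KRT8 and KRT18. Summed with CDH2, CDH1 and EPCAM, the other mesenchymal and epithelial markers examined, their level was 3920 to 11500 CPM. CDH2 had 282 to 1157 reads, whereas the epithelial markers CDH1 and EPCAM had at most 1 and 5 reads in a library. PTPRC, a marker of leukocytes, and CD3E, a marker of T cells, had no read in any library. Of 7 leukocyte markers, 4 were at 3 reads or fewer in all 24 libraries, and the summed level of the 7 ran from 8.38 to 13 CPM in control and from 2.51 to 8.42 CPM in the 5 lines. ITGAM made up 47.3% to 94% of that sum, CD68 had 10 to 45 reads in a library, and CD14 had at most 13. The summed level of 4 endothelial markers was 0.192 to 0.449 CPM in control and 0.305 to 2.02 CPM in the lines, and that of 5 fibroblast markers was 0.465 to 1.38 and 0.534 to 2.5 CPM. The part of these markers in the results below was not tested. The libraries also fell into 2 sets of 12 in which the deviation of a gene from its mean followed gene length in opposite directions. The sets were defined from the data and cross the lines, with at least 1 library of each set in each group, and values that move with them are given beside the results.

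Most of the inflammatory ligands were silent or nearly so. Of the 38 genes, 26 passed the filter on low counts and were tested, and 12 did not (CXCL5, CXCL8, CXCL10, CCL2, CCL5, CCL20, IL1A, IL1B, IL6, CSF2, TNF and VCAM1). No library held more than 5 reads of any of the 12, and 4 of their 288 values were over 3 reads. CXCL10, an interferon-induced chemokine, had no read in any of the 24 libraries, and IL6, a central inflammatory cytokine, had 1 read in all. TNF, the classical activator of the pathway, had 2 reads in all, and CXCL8, the main neutrophil chemokine, had 13. Differences in these genes were not detectable at this depth.

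**Figure D1:**
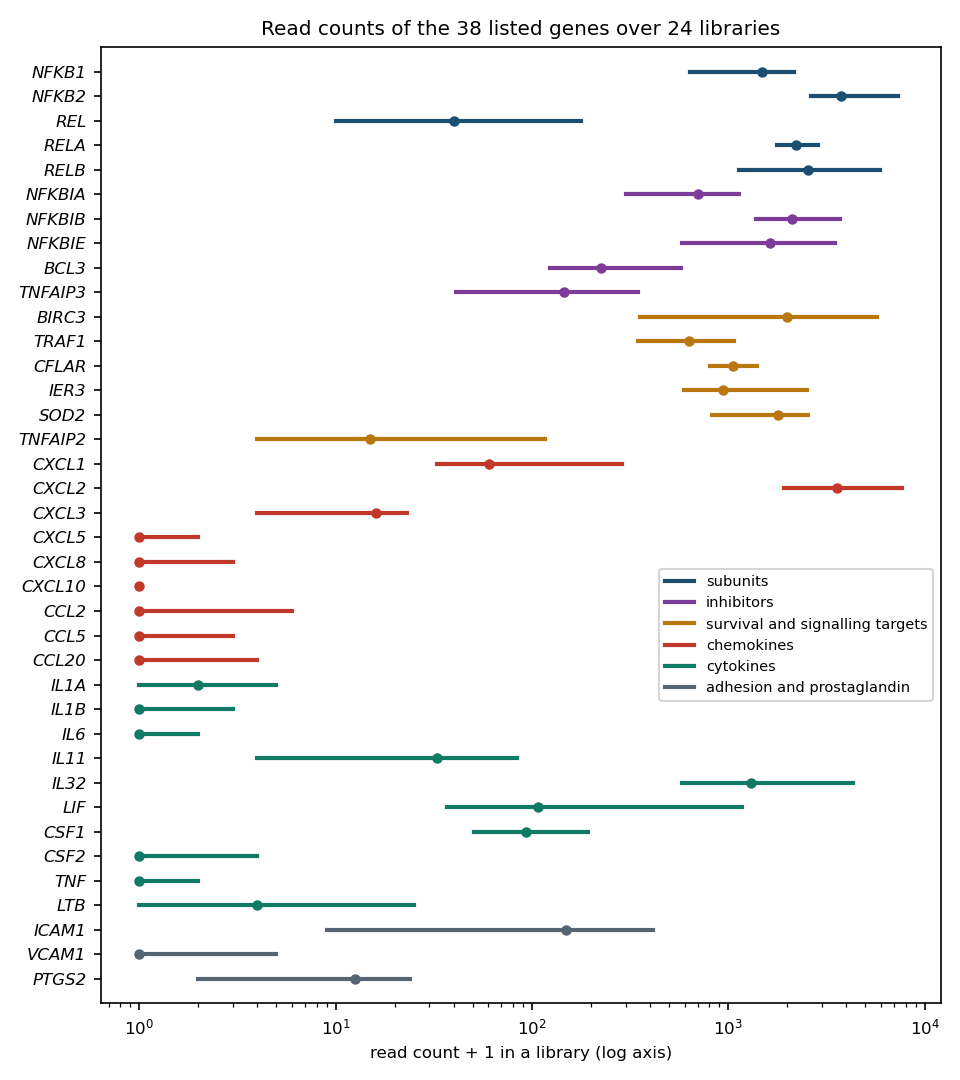
Read counts of the 38 genes over 24 libraries, grouped by role. The horizontal axis is the read count plus 1 on a log axis, the point is the median library and the line runs from the lowest to the highest library. The 12 genes that were not tested lie at the left, with at most 5 reads, whereas CXCL2 and NFKB2 reached 7707 and 7299 reads.

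Relative to exon length, the highest mean level over all libraries was that of the chemokine gene CXCL2 (131.2 CPM per kb). NFKBIB (42.3), RELB (41.7), IER3 (36.5) and NFKB2 (35.1 CPM per kb) followed. Among the subunits REL was the lowest (0.143 CPM per kb). ICAM1 stood at 2.11 and LIF at 2.01 CPM per kb, and the lowest of the 26 tested genes was PTGS2, the inducible cyclooxygenase, at 0.0906 CPM per kb.

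Few of the 26 genes passed the test against control. Each line was compared with the 4 control libraries, which all 5 comparisons share, using edgeR's quasi-likelihood test. Calls required a Benjamini-Hochberg adjusted p under 0.05 over all 18295 tested genes, together with a change of 1.5 or more on the log2 scale. In Δ133p53α1, LIF alone was called (lower), against a background of 2.6% of all tested genes. Δ133p53α2 had 2 calls, ICAM1 and LIF, both lower (background 2.8%), and Δ133p53α8 had LIF (lower, background 2.5%). Δ133p53β5 had LIF (lower, background 4.21%). Δ133p53β10 had 4 calls, with ICAM1 and CXCL1 higher and LIF and TNFAIP2 lower (background 4.69%). The single call in Δ133p53α1, Δ133p53α8 and Δ133p53β5 is 3.85% of the 26 genes, which is near the background in each of them, and the 4 calls in Δ133p53β10 are 15.4%. The list was chosen with earlier results of these data known, so its shares are not an independent measure against the background. No other member passed the adjusted p alone in any of these 5 comparisons, where 4.88% (Δ133p53α1), 5.31% (Δ133p53α2), 4.48% (Δ133p53α8), 7.99% (Δ133p53β5) and 9.82% (Δ133p53β10) of all genes did. The count in Δ133p53α1 rose to 4 without replicate 1 of that line, its only library of the set with a positive length trend, and the count over all genes rose from 475 to 1606.

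**Figure D2:**
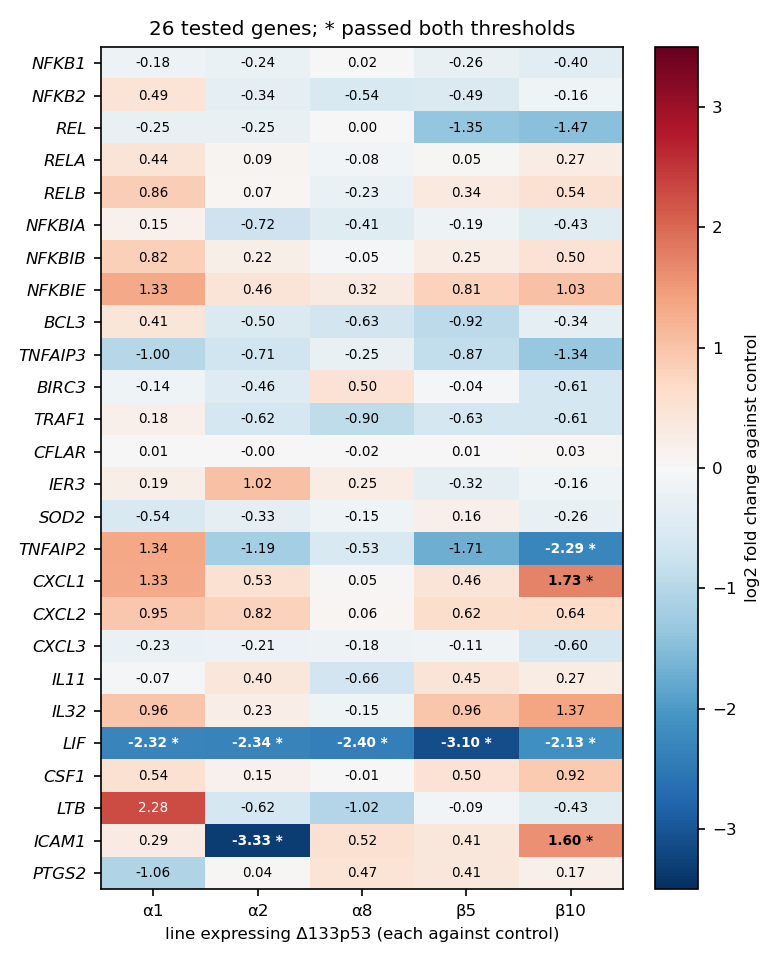
Log2 fold changes of the 26 tested genes in the 5 lines, each against control. Color and number give the fold change, and an asterisk marks a call. LIF is called in all 5 columns, ICAM1 is called lower in Δ133p53α2 and higher in Δ133p53β10, and the rows of the subunits hold no call.

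The median log2 fold change of the 26 genes was −0.16 in Δ133p53β10 and −0.01 in Δ133p53β5. For the Δ133p53α lines the medians were 0.24 (α1), −0.22 (α2) and −0.11 (α8). Over all tested genes the corresponding medians lay between −0.05 and 0.03. The medians of the list thus had both signs.

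None of the subunit genes was called in any comparison. RELA encodes the subunit that carries the transactivation domain of the classical dimer. It stood at 84.6, 103, 87.5 and 88.4 CPM in control libraries 1 to 4. In the Δ133p53α lines, RELA was at 94.2, 125, 136 and 138 CPM in Δ133p53α1, at 133, 95.6, 84.1 and 75.2 in Δ133p53α2, and at 96.5, 94.8, 77.3 and 74.2 in Δ133p53α8. In the Δ133p53β lines, RELA was at 95.2, 102 and 84.2 CPM in Δ133p53β5, at 83.0, 120, 151 and 84.0 in Δ133p53β10, and at 112 in the library of unresolved clone. The groups overlapped, and the log2 fold change against control ran from −0.08 in Δ133p53α8 to 0.44 in Δ133p53α1, with adjusted p of 0.186 or more in edgeR. 

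NFKB1 encodes the precursor of the DNA-binding partner of RELA. Its level was 55.1, 91.4, 60.5 and 84.8 CPM in the control libraries. NFKB1 was at 85.1, 71.3, 50.5 and 51.1 CPM in Δ133p53α1, at 36.4, 79.4, 69.9 and 61.7 in Δ133p53α2, and at 84.3, 52.3, 76.3 and 83.8 in Δ133p53α8. It was at 71.2, 58.3 and 53.4 CPM in Δ133p53β5, at 74.2, 46.1, 41.7 and 58.5 in Δ133p53β10, and at 39.8 in the library of unresolved clone. Each line overlapped control, and in each group the mean of the libraries with a positive length trend was the higher.

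NFKB2 and RELB encode the partners of the alternative pathway. NFKB2 was at 216, 208, 209 and 221 CPM in control, a spread far below that of the lines. It was at 175, 307, 320 and 396 CPM in Δ133p53α1, at 260, 146, 137 and 130 in Δ133p53α2, and at 152, 188, 137 and 111 in Δ133p53α8. NFKB2 was at 161, 160 and 134 CPM in Δ133p53β5, at 120, 160, 332 and 154 in Δ133p53β10, and at 172 in the library of unresolved clone. All libraries of Δ133p53α8 and Δ133p53β5 lay below all control libraries, but the fold changes of −0.54 and −0.49 (log2) were not called (edgeR, adjusted p = 0.412 and 0.400).

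RELB was at 105, 114, 78.8 and 107 CPM in control. It was at 85.9, 204, 239 and 204 CPM in Δ133p53α1, at 223, 95.1, 60.4 and 45.9 in Δ133p53α2, and at 109, 92.7, 74.6 and 69.2 in Δ133p53α8. It was at 116, 131 and 138 CPM in Δ133p53β5, at 68.6, 137, 310 and 75.6 in Δ133p53β10, and at 118 in the library of unresolved clone. The high and low libraries of Δ133p53α1 and Δ133p53α2 followed the 2 sets of libraries, and no fold change of RELB exceeded 0.86 (log2).

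REL, which encodes the subunit best known from lymphocytes, was low. It was at 1.11, 4.0, 3.4 and 4.9 CPM in control, where the low value belonged to the only control library with a negative length trend. REL was at 7.3, 0.864, 1.45 and 1.52 CPM in Δ133p53α1, at 1.14, 3.31, 4.44 and 2.3 in Δ133p53α2, and at 4.08, 0.974, 2.66 and 5.72 in Δ133p53α8. It was at 2.18, 1.18 and 0.55 CPM in Δ133p53β5, at 2.03, 1.16, 0.473 and 1.12 in Δ133p53β10, and at 0.72 in the library of unresolved clone. The log2 fold changes of −1.35 in Δ133p53β5 and −1.47 in Δ133p53β10 were not called (edgeR, adjusted p = 0.301 and 0.155), and 2 of 3 and 3 of 4 libraries of those lines, but 1 of 4 in control, belonged to the set in which REL was low. In the fit that included the library set, the values were −0.60 and −0.51 (edgeR adjusted p = 0.305 and 0.394).

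The 5 inhibitor genes held no call either. NFKBIA, NFKBIB and NFKBIE encode IκB proteins, BCL3 a nuclear relative of them, and TNFAIP3 an enzyme that removes ubiquitin from signaling adaptors. TNFAIP3 was below control in all 5 lines, with mean levels of 10.9 CPM in control, 9.10 in Δ133p53α8 and 4.28 in Δ133p53β10, but its lowest adjusted p was 0.0744 (edgeR, Δ133p53β10, log2 fold change −1.34). NFKBIE was above control in all 5 lines, with mean levels of 47.3 CPM in control and 118.8 in Δ133p53α1, and its lowest adjusted p was 0.0875 (edgeR, Δ133p53α1, log2 fold change 1.33). NFKBIA ran from −0.72 to 0.15, NFKBIB from −0.05 to 0.82 and BCL3 from −0.92 to 0.41 on the log2 scale. In the fit that included the library set, BCL3 passed the adjusted p in Δ133p53β5 (log2 −1.18, edgeR adjusted p = 0.0192), as did 17.5% of all genes. Both TNFAIP3 and NFKBIE moved with the sets of libraries, in opposite directions.

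Among the survival and signaling targets, TNFAIP2 was the only gene that was called. BIRC3 encodes an inhibitor of apoptosis, TRAF1 a signaling adaptor, CFLAR an inhibitor of caspase activation, IER3 a stress-induced survival factor, and SOD2 the mitochondrial superoxide dismutase. CFLAR was the steadiest gene of the list, with group means between 48.2 and 49.8 CPM and fold changes between −0.02 and 0.03 (log2). BIRC3 ranged from 354 to 5752 reads between libraries, yet 19% of its variance in log2 CPM lay between the 6 groups. IER3 reached its largest mean in Δ133p53α2 (84.9 CPM against 41.9 in control, log2 fold change 1.02, edgeR adjusted p = 0.0948), and TRAF1 its smallest in Δ133p53α8 (20.5 CPM against 38.1 in control, log2 fold change −0.90, edgeR adjusted p = 0.0835). SOD2 ran from −0.54 to 0.16 on the log2 scale. In the fit that included the library set, IER3 in Δ133p53α2 (log2 0.95, edgeR adjusted p = 0.0133) and TRAF1 in Δ133p53α8 (−0.90, 0.0351) passed the adjusted p below the fold threshold, as did 12.2% and 10.4% of all genes with or without that fold.

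TNFAIP2, a gene induced by TNF whose product acts in membrane protrusions, split the lines. The gene lies at chr14:103121476-103137439 (GRCh38, plus strand). TNFAIP2 was at 0.882, 1.36, 2.28 and 0.972 CPM in control. It was at 2.77, 2.24, 2.73 and 6.3 CPM in Δ133p53α1, at 0.628, 0.559, 0.534 and 0.687 in Δ133p53α2, and at 0.595, 2.23, 0.422 and 0.584 in Δ133p53α8. In the Δ133p53β lines it was at 0.299, 0.455 and 0.504 CPM in Δ133p53β5, at 0.29, 0.145, 0.525 and 0.166 in Δ133p53β10, and at 0.823 in the library of unresolved clone. All 7 libraries of the Δ133p53β clones, and the library of unresolved clone, lay below every control library. The same held for every library of Δ133p53α2 and for those of Δ133p53α8 other than replicate 2. The fold change was called in Δ133p53β10 (log2 −2.29, SE 0.533, edgeR adjusted p = 0.00806). In Δ133p53β5 it was −1.71 with an adjusted p of 0.0677 (edgeR). In a fit that included the library set, Δ133p53β5 was called as well (log2 −1.98, edgeR adjusted p = 0.0161, background 6.28%). These values rest on few reads, 3 to 11 in each library of the resolved Δ133p53β clones and 23 to 61 in control.

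Only 3 of the 9 chemokine genes could be tested. CXCL1, CXCL2 and CXCL3 encode closely related ligands that attract neutrophils through CXCR2, and CXCL5 encodes a further ligand of this receptor. The upstream sequences of CXCL1, CXCL2 and CXCL5 are shown because these neighbors on chromosome 4 carry the same κB motif and differ widely in level. They are the 150 bases before the transcription start (RefSeq, GRCh38.p14, transcribed strand, 5′ to 3′; for CXCL2 the last base before the start is left out). Capitals mark matches to the κB consensus decamer and to the 9-base core GGAAATTCC, searched on both strands, whose matches overlap here.
CXCL1, chr4:73869243-73869392, plus strand: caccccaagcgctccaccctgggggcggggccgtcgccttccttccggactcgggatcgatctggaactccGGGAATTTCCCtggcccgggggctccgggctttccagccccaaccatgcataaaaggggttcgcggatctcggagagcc
CXCL2, chr4:74099197-74099346, minus strand: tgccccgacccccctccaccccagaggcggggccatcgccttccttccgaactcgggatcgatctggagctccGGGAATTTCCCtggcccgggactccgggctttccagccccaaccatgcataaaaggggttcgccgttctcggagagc
CXCL5, chr4:73998678-73998827, minus strand: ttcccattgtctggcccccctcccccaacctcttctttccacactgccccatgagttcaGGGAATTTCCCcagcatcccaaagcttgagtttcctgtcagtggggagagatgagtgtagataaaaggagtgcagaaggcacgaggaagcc

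The window of CXCL5 also holds an exon of another annotated gene, ENSG00000287037. The capital block began 79 bases before the start of CXCL1, 78 before that of CXCL2 and 91 before that of CXCL5. The windows of CXCL1 and CXCL2 were identical at 88.2% of aligned positions, and that of CXCL5 shared 50% with CXCL1. In these libraries CXCL2 had between 1925 and 7707 reads, CXCL1 between 32 and 288, and CXCL5 at most 1. The same letters thus stood upstream of the most abundant gene of the list per length and of a gene without detectable transcript. In the 250 bases before the start, the decamer was found in 18 of the 31 members with an entry (58.1%) and in 6.28% of all genes, and the 9-base core in 11 of 31 (35.5%) and in 0.502%. The list was made of NF-κB pathway genes and targets, so a share of κB matches above that of all genes follows from its choice. A match is a description of the sequence and not a measured binding site. 

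CXCL1 was called in Δ133p53β10 alone. The gene lies at chr4:73869393-73871308 (GRCh38). It was at 3.53, 1.36, 1.8 and 1.77 CPM in control and at 2.2, 2.71, 15.1 and 8.18 CPM in Δ133p53β10. The Δ133p53β10 libraries therefore split, with 2 libraries inside the range of control and 2 far above it. CXCL1 was at 2.6, 7.42, 6.64 and 4.73 CPM in Δ133p53α1, at 5.2, 2.97, 2.22 and 1.94 in Δ133p53α2, and at 2.47, 2.6, 1.6 and 2.13 in Δ133p53α8. It was at 2.61, 2.64 and 3.48 CPM in Δ133p53β5 and at 3.45 in the library of unresolved clone. The fold change in Δ133p53β10 was 1.73 on the log2 scale (SE 0.498, edgeR adjusted p = 0.0305). This call rested on single libraries: without replicate 3 of the line the value was 1.04 (adjusted p = 0.195), without replicate 4 it was 1.65 (0.0638), and without control replicates 2, 3 and 4 it was 1.57 (0.0952), 1.66 (0.093) and 1.66 (0.0799), all in edgeR. CXCL1 was lower in the set with a positive length trend in all 6 groups, by 0.93 on average (log2), and in the fit that included the library set the value was 1.18 (edgeR adjusted p = 0.0504).

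CXCL2 was above control in all 5 lines, by 0.06 to 0.95 (log2), with adjusted p of 0.177 or more (edgeR). CXCL3 was below control in all 5 lines, by values from −0.11 to −0.60, with adjusted p of 0.298 or more (edgeR). The canonical transcripts of CXCL1 and CXCL2 are 83.4% identical, those of CXCL2 and CXCL3 71.5%, and how reads shared between them were counted is not given in the sources used here, so the values of these genes are uncertain to the extent that such reads were split.

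LIF, a cytokine of the IL6 family that acts through LIFR and gp130 receptors, fell in every line. It lies at chr22:30240453-30246759 (GRCh38, minus strand). LIF was at 25.3, 15.2, 43.8 and 13.1 CPM in control. It was at 4.91, 5.29, 4.02 and 5.27 CPM in Δ133p53α1, at 4.68, 6.28, 3.58 and 4.65 in Δ133p53α2, and at 5.87, 5.1, 3.84 and 3.59 in Δ133p53α8. It was at 3.33, 2.96 and 2.2 CPM in Δ133p53β5, at 4.73, 5.42, 5.46 and 6.56 in Δ133p53β10, and at 1.85 in the library of unresolved clone. Every library of the 5 lines lay below the lowest control library, while the control libraries themselves ranged from 13.1 to 43.8 CPM. In RNA from whole cultures, fewer cells that express a gene and less RNA per cell cannot be told apart.

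The mean of LIF was 24.4 CPM ± 14.1 (SD, n = 4) in control and between 2.83 CPM ± 0.577 (SD, n = 3, Δ133p53β5) and 5.54 CPM ± 0.759 (SD, n = 4, Δ133p53β10) in the lines. The log2 fold change was −2.32 in Δ133p53α1 (SE 0.311, edgeR adjusted p = 6.83e-05), −2.34 in Δ133p53α2 (SE 0.310, 4.52e-05) and −2.40 in Δ133p53α8 (SE 0.311, 4.37e-05). In the Δ133p53β lines it was −3.10 in Δ133p53β5 (SE 0.361, edgeR adjusted p = 1.16e-05) and −2.13 in Δ133p53β10 (SE 0.308, 0.000102). The 5 comparisons share the control libraries, where LIF had 660, 357, 1172 and 309 reads. Without any 1 library the values stayed between −3.31 and −1.69 and each call held. Over all tested genes, 0.558% were called lower in all 5 lines. The antisense gene LIF-AS2 overlaps LIF, with 7 to 24 reads in control and 0 to 13 in the lines, and was itself called lower in Δ133p53β5 (log2 −2.58, SE 0.737, edgeR adjusted p = 0.0325). The libraries were made to keep the strand of the RNA, but the strand setting of the counting is not given in the sources used here.

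**Figure D3:**
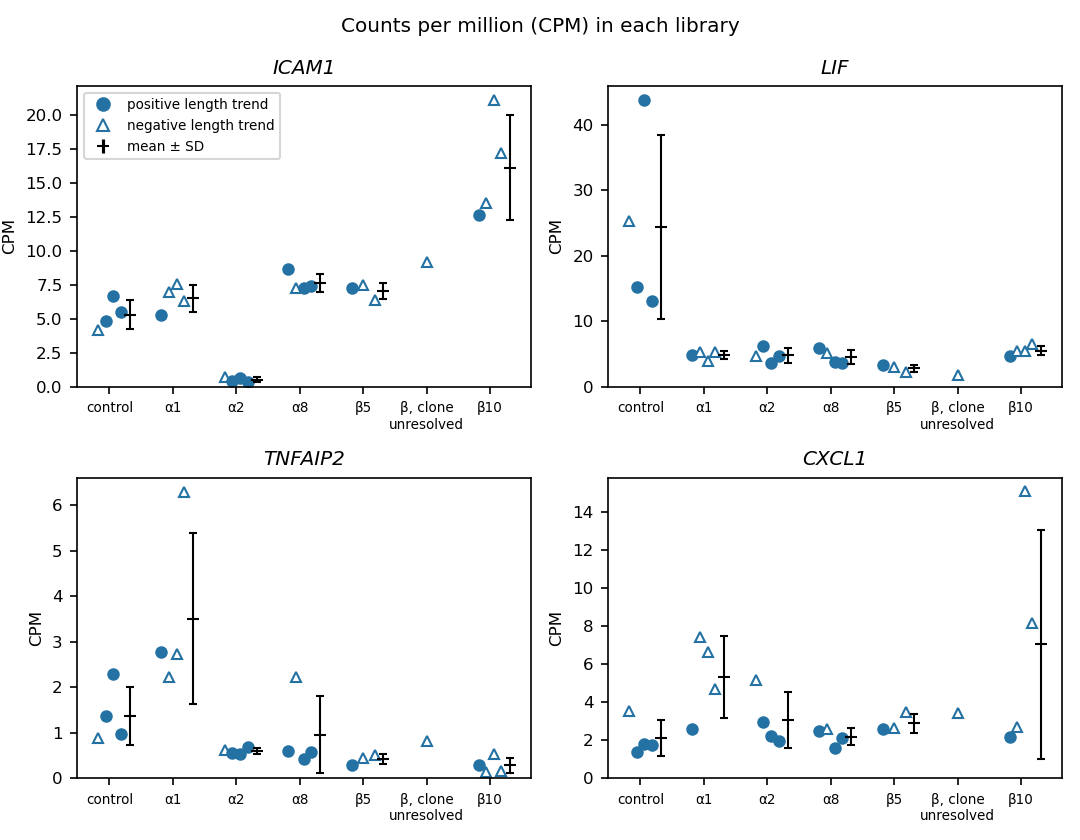
CPM of ICAM1, LIF, TNFAIP2 and CXCL1 in each of the 24 libraries, by line. Filled circles are libraries with a positive and open triangles libraries with a negative length trend, and the bars beside them give mean ± SD. ICAM1 lies between 0.323 and 0.742 CPM in Δ133p53α2 and between 12.6 and 21.1 CPM in Δ133p53β10, and LIF lies above 13 CPM in control libraries alone.

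The other cytokines gave no call against control. IL32, which encodes a pro-inflammatory cytokine, had mean levels of 42.3 CPM in control and 109.6 in Δ133p53β10 (log2 fold change 1.37, edgeR adjusted p = 0.0709). The Δ133p53β10 libraries ran from 45.6 to 226.8 CPM of IL32, and in the fit that included the library set the fold change was 0.78 (log2, edgeR adjusted p = 0.244). CSF1, the growth factor of macrophages, had 3.14 CPM in control and 5.96 in Δ133p53β10 (log2 fold change 0.92, edgeR adjusted p = 0.0536). In the fit that included the library set, CSF1 passed the adjusted p in Δ133p53β10 without reaching the fold threshold (log2 0.95, edgeR adjusted p = 0.0436), as did 13.7% of all genes with or without that fold. IL11, a relative of LIF in the same cytokine family, ran from −0.66 to 0.45 on the log2 scale and did not follow the fall of LIF.

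LTB encodes lymphotoxin beta, the membrane anchor of a ligand that activates the alternative NF-κB pathway. It had 6, 5, 5 and 0 reads in control. LTB had 8, 12, 24 and 17 reads in Δ133p53α1, 3, 0, 3 and 3 in Δ133p53α2, and 1, 2, 1 and 3 in Δ133p53α8. It had 4, 0 and 6 reads in Δ133p53β5, 1, 6, 2 and 1 in Δ133p53β10, and 3 in the library of unresolved clone. Each Δ133p53α1 library was above each library of the other lines and of control. The ratio of Δ133p53α1 to control was 4.75 from 61 and 16 reads (95% interval 2.7 to 8.83, counting error only), and the fitted difference was not called (edgeR, adjusted p = 0.0721).

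ICAM1 encodes the intercellular adhesion molecule that binds leukocyte integrins formed by ITGB2 with ITGAL or ITGAM, and it is a classical NF-κB target. The gene spans chr19:10271093-10286615 (GRCh38, plus strand). Its upstream sequence (RefSeq, GRCh38.p14, plus strand, 5′ to 3′, from 250 to 28 bases before the RefSeq start, where the GENCODE gene begins) is shown for the 9-base core, in capitals, that it shares with the chemokine promoters above.
ICAM1, chr19:10270870-10271092, plus strand: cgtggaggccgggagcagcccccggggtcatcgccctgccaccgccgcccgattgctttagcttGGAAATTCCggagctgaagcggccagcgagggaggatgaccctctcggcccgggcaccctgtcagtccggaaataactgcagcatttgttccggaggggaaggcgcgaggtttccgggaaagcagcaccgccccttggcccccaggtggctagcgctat
The core lay 186 to 178 bases before the RefSeq start, and the decamer had no match in this window, which says only that its letters are not there.

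ICAM1 fell in 1 Δ133p53α clone and rose in 1 Δ133p53β clone. It was at 4.14, 4.85, 6.7 and 5.53 CPM in control. In the Δ133p53α lines it was at 5.24, 6.96, 7.53 and 6.3 CPM in Δ133p53α1, at 0.742, 0.43, 0.617 and 0.323 in Δ133p53α2, and at 8.63, 7.23, 7.26 and 7.43 in Δ133p53α8. In the Δ133p53β lines it was at 7.26, 7.51 and 6.37 CPM in Δ133p53β5, at 12.6, 13.5, 21.1 and 17.2 in Δ133p53β10, and at 9.2 in the library of unresolved clone. The Δ133p53α2 libraries lay far below, and the Δ133p53β10 libraries above, every other library, and Δ133p53α8 lay just above control without being called. The library of unresolved clone lay between the ranges of Δ133p53β5 and Δ133p53β10.

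The mean of ICAM1 was 0.528 CPM ± 0.187 in Δ133p53α2, 5.31 ± 1.09 in control, 6.51 ± 0.985 in Δ133p53α1, 7.05 ± 0.599 in Δ133p53β5, 7.64 ± 0.667 in Δ133p53α8 and 16.1 ± 3.85 in Δ133p53β10 (SD, n = 3 in Δ133p53β5 and 4 otherwise). In this order the libraries of control, Δ133p53α1, Δ133p53β5 and Δ133p53α8 overlapped from each group to the next. Against control, ICAM1 was 10.1-fold lower in Δ133p53α2 (log2 −3.33, SE 0.258, edgeR adjusted p = 3.05e-08) and 3.03-fold higher in Δ133p53β10 (log2 1.60, SE 0.226, edgeR adjusted p = 8.11e-05). The change in Δ133p53β10 was close to the fold threshold. It fell below it, with log2 values of 1.45 and 1.497 and adjusted p of 0.000359 and 0.000535 (edgeR), without replicate 3 of the line and without control replicate 1, and with the unresolved library counted in Δ133p53β10 (1.47). ICAM1 was the gene of the list whose variance in log2 CPM lay most between the 6 groups (97.3%, against a median of 38.3% over the 26 genes and 33.1% over all tested genes), followed by LIF (86.5%) and TNFAIP2 (79.8%).

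The antisense gene ICAM4-AS1, which overlaps the end of ICAM1 on the other strand, was likewise lowest in Δ133p53α2 and highest in Δ133p53β10. It and ICAM5 below were named after the values of the neighboring genes had been seen. ICAM4-AS1 was at 1.61 CPM ± 0.439 in control, 0.143 ± 0.058 in Δ133p53α2 and 8.27 ± 4.92 in Δ133p53β10 (n = 4 per group, SD). It was lower in Δ133p53α2 (log2 −3.44, SE 0.515, edgeR adjusted p = 0.000181) and higher in Δ133p53β10 (log2 2.35, SE 0.418, edgeR adjusted p = 0.000851). Its count was 13.3% to 71.3% of the ICAM1 count across libraries, and since the strand setting of the counting is not given in the sources used here, reads of the overlap cannot be told apart. The other 10 tested genes within 100 kb of ICAM1 gave no call in these lines, and ICAM5, a related adhesion gene, was lower in Δ133p53β5 (log2 −1.60, SE 0.292, edgeR adjusted p = 0.00134). VCAM1, the other vascular adhesion gene of the list, had at most 4 reads in a library, and PTGS2 ran from −1.06 to 0.47 on the log2 scale without a call.

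The isoforms were then compared with each other, as the mean of the Δ133p53β lines minus the mean of the Δ133p53α lines. The p-values and intervals of this comparison measure the spread between libraries and not between clones. An isoform and its clones therefore cannot be told apart here. ICAM1 was higher in the Δ133p53β lines and TNFAIP2 lower, which is 2 of 26 genes (7.69%) against a background of 1.4%. As the list was chosen with earlier results of these data known, this share is a description. ICAM1 differed by 1.84 (log2, 95% interval 1.53 to 2.16, edgeR adjusted p = 8.52e-08) and TNFAIP2 by −1.87 (log2, 95% interval −2.65 to −1.10, edgeR adjusted p = 0.00381). Each difference rested on particular clones. Without Δ133p53α2 the ICAM1 difference was 0.60 (adjusted p = 0.0428) and without Δ133p53β10 it was 1.25 (0.000758), both below the fold threshold (edgeR). Without Δ133p53α1 the TNFAIP2 difference was −1.14 (adjusted p = 0.118) and without Δ133p53β10 it was −1.58 (0.154), both in edgeR. Of the genes that were not called, IL32 (0.82, 95% interval 0.17 to 1.47), CSF1 (0.48, 0.07 to 0.90), REL (−1.25, −2.21 to −0.28) and IER3 (−0.73, −1.21 to −0.24) had intervals that left out 0, with adjusted p of 0.160, 0.201, 0.151 and 0.0854 (edgeR). In the fit that included the library set, IER3 passed the adjusted p (log2 −0.90, edgeR adjusted p = 0.00157), as did 11.5% of all genes, whereas REL was at −0.60 (0.130), IL32 at 0.58 (0.164) and CSF1 at 0.50 (0.109). The interval was −0.69 to 0.17 for LIF and −0.28 to 0.30 for RELA.

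**Figure D4:**
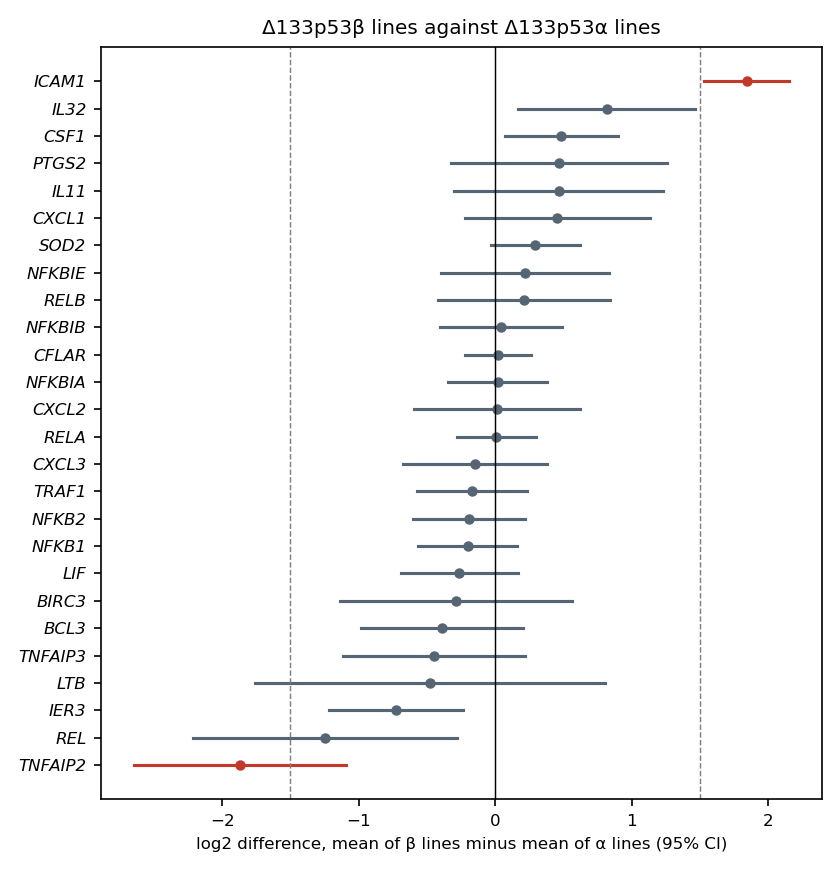
Log2 difference between the mean of the Δ133p53β lines and the mean of the Δ133p53α lines for the 26 genes, with 95% intervals. Dashed lines mark 1.5 (log2), and red marks the called genes. ICAM1 at 1.84 and TNFAIP2 at −1.87 stand at the ends.

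Clones of one isoform also differed. Among the Δ133p53α lines, ICAM1, LTB and TNFAIP2 were called, which is 11.5% of the genes against a background of 0.814%. This share, too, belongs to a list chosen with earlier results of these data known. LTB passed the filter on low counts only through Δ133p53α1, where it was high, so its call and its part in the 11.5% are not independent of that filter. The largest difference between a pair of these lines was 3.86 for ICAM1 (log2, edgeR adjusted p = 1.75e-08), 2.53 for TNFAIP2 (0.0115) and 3.30 for LTB (0.0364). For ICAM1 the extremes were Δ133p53α2 and Δ133p53α8, and for TNFAIP2 they were Δ133p53α2 and Δ133p53α1. The TNFAIP2 difference was no longer called without replicate 4 of Δ133p53α1 (2.09, edgeR adjusted p = 0.0952). The LTB call, which rests on 61 reads in Δ133p53α1 and 7 in Δ133p53α8, was lost without any of 6 single libraries: replicates 3 and 4 of Δ133p53α2, replicates 1, 3 and 4 of Δ133p53α8 and replicate 1 of Δ133p53β5 (edgeR, adjusted p from 0.0528 to 0.0929). Without replicate 2, 3 or 4 of Δ133p53α1, LTB no longer passed the filter on low counts, so the call was kept in 14 of 23 cases. Between Δ133p53β10 and Δ133p53β5, 0 of the 26 genes and 0 of all genes were called by edgeR (background 0%), and DESeq2 and limma called 0 as well. An unadjusted p under 0.05 (edgeR) was reached by 3 of the 26 genes and by 376 of all 18295 tested genes. The ICAM1 difference of this pair was 1.19 (log2, 95% interval 0.68 to 1.70, edgeR adjusted p = 0.610).

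The 2 sets of libraries differed in several members. These differences are a description, since the sets were defined from the data. Within the groups, 10 of the 26 genes kept the same sign in all 6 groups (38.5%, against 57.9% of all tested genes). REL (1.69), BIRC3 (1.35), PTGS2 (1.20), TNFAIP3 (1.09) and NFKB1 (0.61) were higher in the libraries with a positive length trend (mean log2 difference), and NFKBIE (−0.98), CXCL1 (−0.93), RELB (−0.78), IER3 (−0.69) and IL11 (−0.57) were lower. LIF (−0.07) and ICAM1 (−0.14) differed little on average and with mixed signs.

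**Figure D5:**
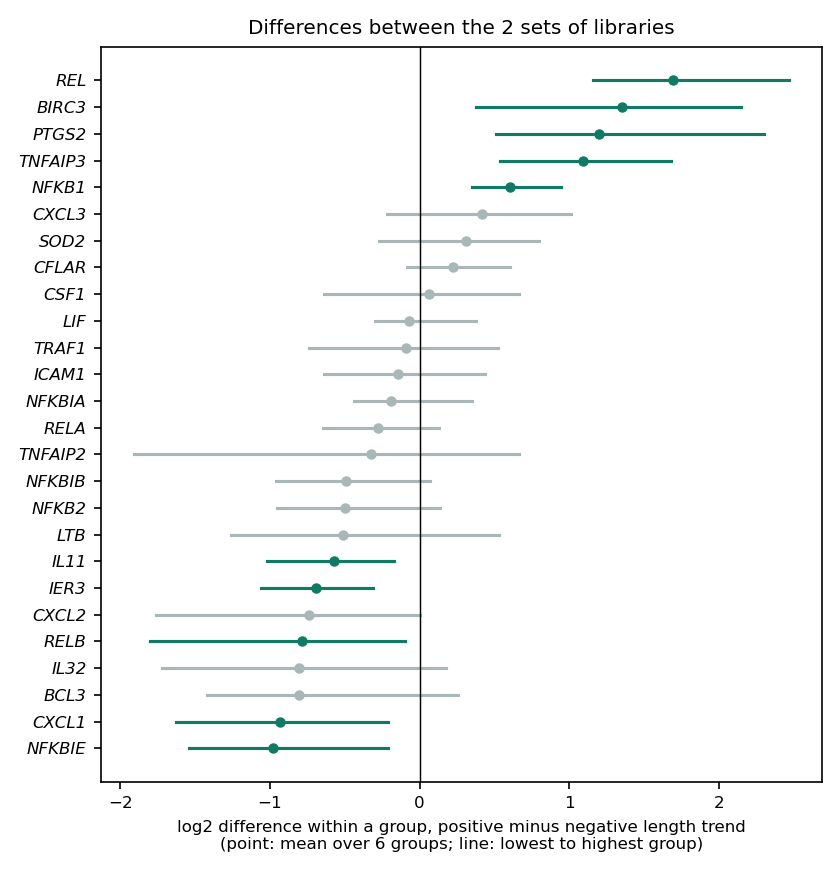
Log2 difference within a group between libraries with a positive and with a negative length trend. The point is the mean over 6 groups, the line runs from the lowest to the highest group, and green marks the 10 genes with the same sign in all 6. REL lies at the upper end (1.69) and NFKBIE at the lower (−0.98), while LIF and ICAM1 lie near 0.

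The rest of the pathway was examined with lists of its other genes, which were likewise chosen with earlier results of these data known. None of 27 tested kinases and adaptors upstream of NF-κB was called in any line, and 5 of their 135 gene and line pairs (3.7%) passed the adjusted p alone, all higher. Over all genes 6.49% of such pairs passed it, 3.36% were called, and 62.3% of those calls were lower. Of 17 ubiquitin regulators, TNIP3, an inhibitor that binds TNFAIP3, gave the 2 calls (2.35% of pairs), both higher. They were in Δ133p53α1 (log2 3.48, edgeR adjusted p = 0.0196) and Δ133p53β5 (3.18, 0.0299). TNIP3 had 0 to 3 reads in control, 5 to 28 in Δ133p53α1 and 11 to 15 in Δ133p53β5. It passed the filter on low counts only through lines where it was high, so its calls are not independent of that filter. The Δ133p53β5 call was kept in 17 of 23 cases when 1 library was left out. Of 15 tested receptors that signal to NF-κB, 5 of 75 pairs (6.67%) were called, all lower, and they belong to 2 genes. IL1R1, the receptor of interleukin-1, had 86 to 309 reads in control and 11 to 58 in Δ133p53β10 (log2 −2.44, SE 0.485, edgeR adjusted p = 0.00236). It was also called lower in Δ133p53α2 (log2 −1.88, edgeR adjusted p = 0.0196) and Δ133p53β5 (−2.315, 0.00891). In Δ133p53α1 (log2 −1.56) and Δ133p53α8 (−1.35) IL1R1 was below control without a call. TNFRSF1B, the second TNF receptor, had 16 to 54 reads in control, 0 to 2 in Δ133p53β5 and 0 to 3 in Δ133p53β10 (edgeR, adjusted p = 0.0224 and 0.0135). The library of unresolved clone had 12 reads. With that library counted in Δ133p53β5, TNFRSF1B was no longer called there (log2 −2.78, edgeR adjusted p = 0.0749). The difference between isoforms (log2 −3.03, edgeR adjusted p = 0.0201) was lost with either placement of it (0.0698 in Δ133p53β5 and 0.0598 in Δ133p53β10).

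Of 9 tested receptors for ligands of the list, 8 of 45 pairs were called (17.8%), 6 lower and 2 higher. CSF2RA, a receptor chain for CSF2, had 11 to 23 reads in control and at most 1 in any library of the 3 Δ133p53α lines, where it was called lower in each (edgeR, adjusted p = 0.00138, 0.00179 and 0.00316). It was also below control in Δ133p53β5 (log2 −2.28) and Δ133p53β10 (−1.56), without a call. CSF2RA passed the filter on low counts only through control, where it was high, so its calls and their part in the 17.8% are not independent of that filter. Its ligand CSF2 had at most 3 reads in a library. ITGAM, which with ITGB2 forms a receptor of ICAM1, had 206 to 282 reads in control and was called lower in Δ133p53α2 (log2 −1.68, SE 0.228, edgeR adjusted p = 5.65e-05), Δ133p53β5 (−1.79, SE 0.254, 0.000106) and Δ133p53β10 (−1.76, SE 0.229, 3.21e-05). In Δ133p53α8 (log2 −1.39, SE 0.225, edgeR adjusted p = 0.000517) and Δ133p53α1 (−0.96, SE 0.223, 0.0139) ITGAM was lower past the adjusted p but below the fold threshold. ITGB2 was higher in Δ133p53α1, with 21 to 27 reads against 4 to 6 in control (log2 2.66, SE 0.617, edgeR adjusted p = 0.0136). It was also called higher in Δ133p53β10 (log2 2.02, SE 0.621, edgeR adjusted p = 0.0429), a call that was kept in 10 of 23 cases when 1 library was left out.

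Of 23 further NF-κB targets that were tested, 7 of 115 gene and line pairs (6.09%) were called, all lower, and they belong to 3 genes. TNFRSF9, a costimulatory receptor, was called lower in Δ133p53α2 (log2 −2.15, SE 0.4, edgeR adjusted p = 0.00164), Δ133p53α8 (−2.01, SE 0.396, 0.00332) and Δ133p53β5 (−1.64, SE 0.43, 0.0201). Without a call it was at −1.08 in Δ133p53β10 and −0.16 in Δ133p53α1 (log2). XDH, the xanthine dehydrogenase, had 6 to 36 reads in control and 0 or 1 in every Δ133p53β library (edgeR, adjusted p = 0.0025 in Δ133p53β5 and 0.000605 in Δ133p53β10). It had 1 to 12 reads in Δ133p53α1, 2 to 17 in Δ133p53α2 and 2 to 6 in Δ133p53α8. XDH passed the filter on low counts only with control, where it was highest. Its calls and their part in the 6.09% are therefore not independent of that filter. IL7R, the receptor of interleukin-7, had 12 to 40 reads in control, 2 to 5 in Δ133p53β5 (edgeR, adjusted p = 0.0267) and 0 to 5 in Δ133p53β10 (0.00336). It was lower in the Δ133p53β than in the Δ133p53α lines (log2 −4.01, SE 0.548, edgeR adjusted p = 7.39e-05). Of 22 tested interferon response genes, the 4 calls (3.64% of pairs) were all of GBP1, a guanylate-binding protein, which was higher in Δ133p53α2 (log2 2.39, SE 0.455, edgeR adjusted p = 0.00203) and Δ133p53α8 (2.04, SE 0.452, 0.00872) among others. GBP1 had 38 to 308 reads in the Δ133p53α2 libraries, and without replicate 4 of that line the value was 1.64 (edgeR adjusted p = 0.0122). Of 12 AP-1 and immediate early genes, EGR1 and FOS gave 3 calls in the Δ133p53β lines (5% of pairs), all lower. None of these 3 held without control replicate 3, where EGR1 was at −1.49 in Δ133p53β5 (edgeR adjusted p = 0.132) and −1.65 in Δ133p53β10 (0.0538), and FOS at −1.72 in Δ133p53β10 (0.139). Within the set with a negative length trend the values were −0.09, −0.19 and −0.17. In Δ133p53α1, Δ133p53α2 and Δ133p53α8, without a call, EGR1 was at −1.34, −1.23 and −1.325 (log2). FOS was at −0.39, −1.58 and −1.04 in the same lines. Neither gene was called between the isoforms (edgeR, adjusted p = 0.215 for EGR1 and 0.205 for FOS). The median of each of these lists stayed between −0.68 and 0.52 in each line. Of all 34 calls in these lists, those between the isoforms included, 15 held without each library in turn. The 4 calls of CSF2RA held in the 20 cases that could be fitted, and without control replicate 2, 3 or 4 the gene did not pass the filter on low counts.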

How the data were processed

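RNA was sequenced from 24 poly(A) libraries of H1299 lines. The counts were deposited as whole reads per gene: per the study's methods the authors used Cutadapt for trimming, HISAT2 for alignment (GRCh38) and featureCounts with an Ensembl annotation for counting, and the strand setting and the treatment of reads with several matches are not given in the sources used here. Members were matched by symbol. The members, the gene lists and the tests were chosen with earlier results of these data known. All members are accounted for, values per library are given for called members and subunits, and up to 3 called genes are named for each pathway list. Counts were scaled by TMM and filtered by group (filterByExpr), and 23 libraries in 6 groups were fitted with edgeR 4.0.16 in R 4.3.3 (quasi-likelihood test, 17 residual degrees of freedom, two-sided). Replicates were compared before averaging, and over the 33 pairs within a group the chi-square was at least 15.8 per degree of freedom, so no library was counted as a repeat. CPM are TMM-scaled. The scripts were tested on simulated data. DESeq2 1.42.0, limma 3.58.1, other scalings and filters, a replicate block, the library sets, both placements of the unresolved library and leaving out each library were alternatives, and leaving out each line was chosen after seeing the data. Positions are from GENCODE, sequences from RefSeq, both on GRCh38, and 7 members have no promoter entry in the table used. A planned check of the labels is not reported here.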

Additional observations from a re-analysis of the deposited data

Results flagged for a closer look

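In 5 of 50 groups of 4 libraries, examined for 10 genes, 1 library stood apart by Dixon's criterion, which chance alone meets in about 1 of 20 groups. NFKB2 was at 260 CPM in replicate 1 of Δ133p53α2, against 130 to 146 CPM in the other libraries of the line. REL was at 7.3 CPM in replicate 1 of Δ133p53α1, against 0.864 to 1.52 CPM. These 2 libraries are also the only ones of their line in their library set. ICAM1 was at 8.63 CPM in replicate 1 of Δ133p53α8, where the others lay between 7.23 and 7.43 CPM. TNFAIP2 was at 6.3 CPM in replicate 4 of Δ133p53α1 (others 2.24 to 2.77 CPM) and at 2.23 CPM in replicate 2 of Δ133p53α8 (others 0.422 to 0.595 CPM), the latter being the only library of that line with a negative length trend.

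The means of the Δ133p53β and the Δ133p53α lines differed by test in TNFAIP2 (log2 −1.87) and in ICAM1 (log2 1.84). This test measures the spread between libraries and not between clones, and each difference rested on particular clones. The Δ133p53α clones differed among themselves in TNFAIP2 (largest log2 difference 2.53), in LTB (3.30) and in ICAM1 (3.86). LTB entered the test only through Δ133p53α1, where it was high.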

How the results depend on the processing

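Of 493 values of the 14 member calls under alternatives, 450 kept direction and call, 43 were no longer called and 0 reversed. Of 1165 values of the pathway calls, 1026 kept both. Of the 34 pathway calls, 32 were lost within at least 1 of the library sets. DESeq2 called 2 members in Δ133p53α1 and 2 in Δ133p53β5, and among the Δ133p53α lines it called 283 of all genes, against 149 in edgeR. With only the groups compared, 2 members were called in Δ133p53β5 and 1 among the Δ133p53α lines, and 2 were called in Δ133p53β5 with the library set included. Within the set with a positive length trend, where Δ133p53α1, Δ133p53β5 and Δ133p53β10 each have 1 library, assumed to vary like the other groups, the numbers of called members were 0, 0 and 0, and they were 2 in Δ133p53α8, 1 between the isoforms and 1 among the Δ133p53α lines. Within the other set, where control, Δ133p53α2 and Δ133p53α8 have 1 library each, they were 0 in Δ133p53α2, 0 in Δ133p53α8, 2 in Δ133p53β10 and 0 among the Δ133p53α lines. LIF kept its direction within single sets, for example with −2.31 in Δ133p53α1 in the first set (edgeR adjusted p = 0.269) and −2.31 in Δ133p53α8 in the other (0.142). The difference between isoforms left 1 call without Δ133p53α1, 1 without Δ133p53α2 and 0 without Δ133p53β10.

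Leaving out each library in turn gave 1 to 4 called members in Δ133p53α1, 2 in Δ133p53α2, 1 in Δ133p53α8, 1 to 2 in Δ133p53β5, 2 to 6 in Δ133p53β10, 2 between the isoforms, 0 between the Δ133p53β clones and 1 to 3 among the Δ133p53α lines. The highest values came without replicate 1 of Δ133p53α1 (4), without replicate 2 of Δ133p53α8 (2, in Δ133p53β5) and without replicate 1 of Δ133p53β10 (6). The lowest came without replicate 3 of Δ133p53β10 (2) and, among the Δ133p53α lines, without replicate 4 of Δ133p53α1 (1). In all, 10 of the 14 member calls held throughout. CXCL1 in Δ133p53β10 was also lost in limma (log2 1.33, adjusted p = 0.0924), and LTB among the Δ133p53α lines as well (2.96, 0.0964).

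Counts over all genes moved by over 1.5 times as well. With only the groups compared they were 295 (from 513) in Δ133p53α2, 429 (from 858) in Δ133p53β10 and 81 (from 149) among the Δ133p53α lines. Where they moved within a single set they were between 13 and 311, apart from 689 (from 457) in Δ133p53α8 within the positive set. Requiring a mean of 1 CPM left between 87 (among the Δ133p53α lines) and 515 (Δ133p53β10), and without the fold threshold the isoform comparison had 865 (from 256). Leaving out replicate 1 of Δ133p53α1 gave 1606 (from 475), replicate 1 of Δ133p53β10 1301 (from 858) and replicate 3 of Δ133p53β5 460 (from 771).

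The replicate numbers did not pair the libraries: over 55 pairs with the same number the correlation of deviations ran from −0.88 to 0.889, with a median of 0.008, and 6 of 23 libraries correlated best with their own number. With the replicate block, 1, 2, 1, 1, 3, 2, 0 and 2 members were called in the 8 comparisons, in the order above. CXCL1 (log2 1.68, edgeR adjusted p = 0.0707) and LTB (3.23, 0.0955) were the calls lost under the block.

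Depth limits the 12 genes with at most 5 reads, and LTB, PTGS2, TNFAIP2 and CXCL3 had medians of 3, 11.5, 14 and 15 reads per library. The cause of the changes between alternatives was not tested.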
